A study of Caenorhabditis elegans with 24 samples.

Results

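The abu and pqn genes of Caenorhabditis elegans encode glutamine- and asparagine-rich proteins, and their transcripts were followed in whole worms after blunt force trauma. Members were chosen by name: every feature of the expression table called abu or pqn followed by a number was taken. This gave 77 genes of 46739 features, of which 15 were abu and 62 were pqn genes. The table covered 24 libraries of poly(A) RNA in 6 groups of 4, from injured worms and uninjured, age-matched controls at 8, 48 and 96 h after the injury. All worms were wild-type N2 animals by the labels, were held at 25 °C and were fed bacteria expressing double-stranded RNA against cdc-25.1, which keeps adults sterile, so the controls carried this RNAi too. Injured worms were agitated at 8600 rpm for 16 s on day 1 of adulthood, and controls were suspended for a comparable time without agitation. Figure legends of the study name a temperature-sterile strain, CF512, for RNA sequencing, and the labels were followed here. RNA came from whole worms in bulk, so a change in the number of cells of one kind and a change in RNA per cell cannot be told apart.

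The name abu stands for activated in blocked unfolded protein response, because the first of these genes were found as transcripts that rise when the endoplasmic reticulum is stressed in worms that cannot mount that response. Several abu and pqn genes are close paralogs that encode secreted or membrane proteins of the pharynx, where they contribute to the cuticle that lines its lumen, and genes of both names have been tied to immunity downstream of the engulfment receptor CED-1 and the neuronal receptor OCTR-1. The name pqn was given for a prion-like domain rich in glutamine and asparagine. It groups proteins by composition rather than by function, and includes nuclear and cytoplasmic proteins such as PQN-85, the cohesin loader SCC-2, PQN-59, a relative of the mammalian stress granule protein UBAP2L, and PQN-41, a protein needed for the death of the linker cell.

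Expression was read as RPKM, the number of reads per kilobase of exon and scaled to the depth of the library, which is a level per length and can be set side by side between genes. Of the 77 genes, 56 passed the filter used for testing, which asked for 4 or more libraries with an RPKM of 1 or above, and 41 were at or above 1 in all 24 libraries. Among abu genes, abu-8, abu-10, abu-11, abu-12, abu-13 and abu-14 passed, which is 6 of 15. Among pqn genes 50 of 62 passed. The 21 genes below the filter, 9 abu and 12 pqn, never exceeded 1.08 RPKM in any library. Just inside the filter lay pqn-71, at or above 1 RPKM in 4 libraries, and pqn-54, in 5. Just outside lay abu-2 and pqn-84, each in 1 library, with highest values of 1.06 and 1.08 RPKM. No member had all its values of at least 1 RPKM in a single group. However, abu-12 reached 1 RPKM in 7 libraries, all of 8 h, and would not have passed without the injured ones. The genes that lie within 10 kb of another member in the ce11 assembly were nearly silent. The neighbours abu-6, abu-7 and abu-15 on chromosome V reached at most 0.08, 0.47 and 0.58 RPKM, abu-5, pqn-78 and pqn-79 on chromosome IV at most 0.14, 0.10 and 0.05 RPKM, and abu-1 and pqn-2 on chromosome V at most 0.85 and 0.63 RPKM. Of these close neighbours, pqn-57 on chromosome X passed, with a highest value of 1.92 RPKM. How reads shared by near-identical copies were assigned is not given in the sources used here, so levels of close paralogs are uncertain.

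Levels spanned a wide range. The mean RPKM over all libraries ran from 0.460 to 289.5 in the 56 genes tested, with a median of 10.3, and 22 genes were below 5 whereas 11 were at or above 50. The most abundant was pqn-59, with a mean of 289.5 RPKM and a range of 119 to 446.2, followed by pqn-44 at 119.3, pqn-53 at 92.8, pqn-51 at 90.7, pqn-83 at 90.5 and pqn-24 at 89.9 RPKM. The abu genes were much less abundant, with means from 0.737 RPKM for abu-12 to 15.2 RPKM for abu-14.

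Libraries held 19675000 to 61887500 mapped reads as recovered from the steps between low RPKM values. The share of ribosomal RNA reads was 46.1% in control 48 h library 4, 5.17 to 8.35% of 3 other libraries and 0.878 to 3.08% of the remaining 20. The scaling factor of control 48 h library 4 by median of ratios was -1.08 on the log2 scale, and the part of the ribosomal reads in this was not tested. Across all 14813 tested features the median log2 change at 48 h was 0.48 in the deposited values and -0.04 after rescaling by median of ratios, so 48 h values are mostly given beside their rescaled values or those without that library. The median log2 change of all features was -0.02 at 8 h and 0.07 at 96 h. The RNAi target cdc-25.1 was detected in every group, from 10.6 to 39.1 RPKM in 48 h controls and up to 118.5 to 251.6 RPKM in injured worms at 96 h, and there were no worms without the RNAi to set against it.

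**Figure D1:**
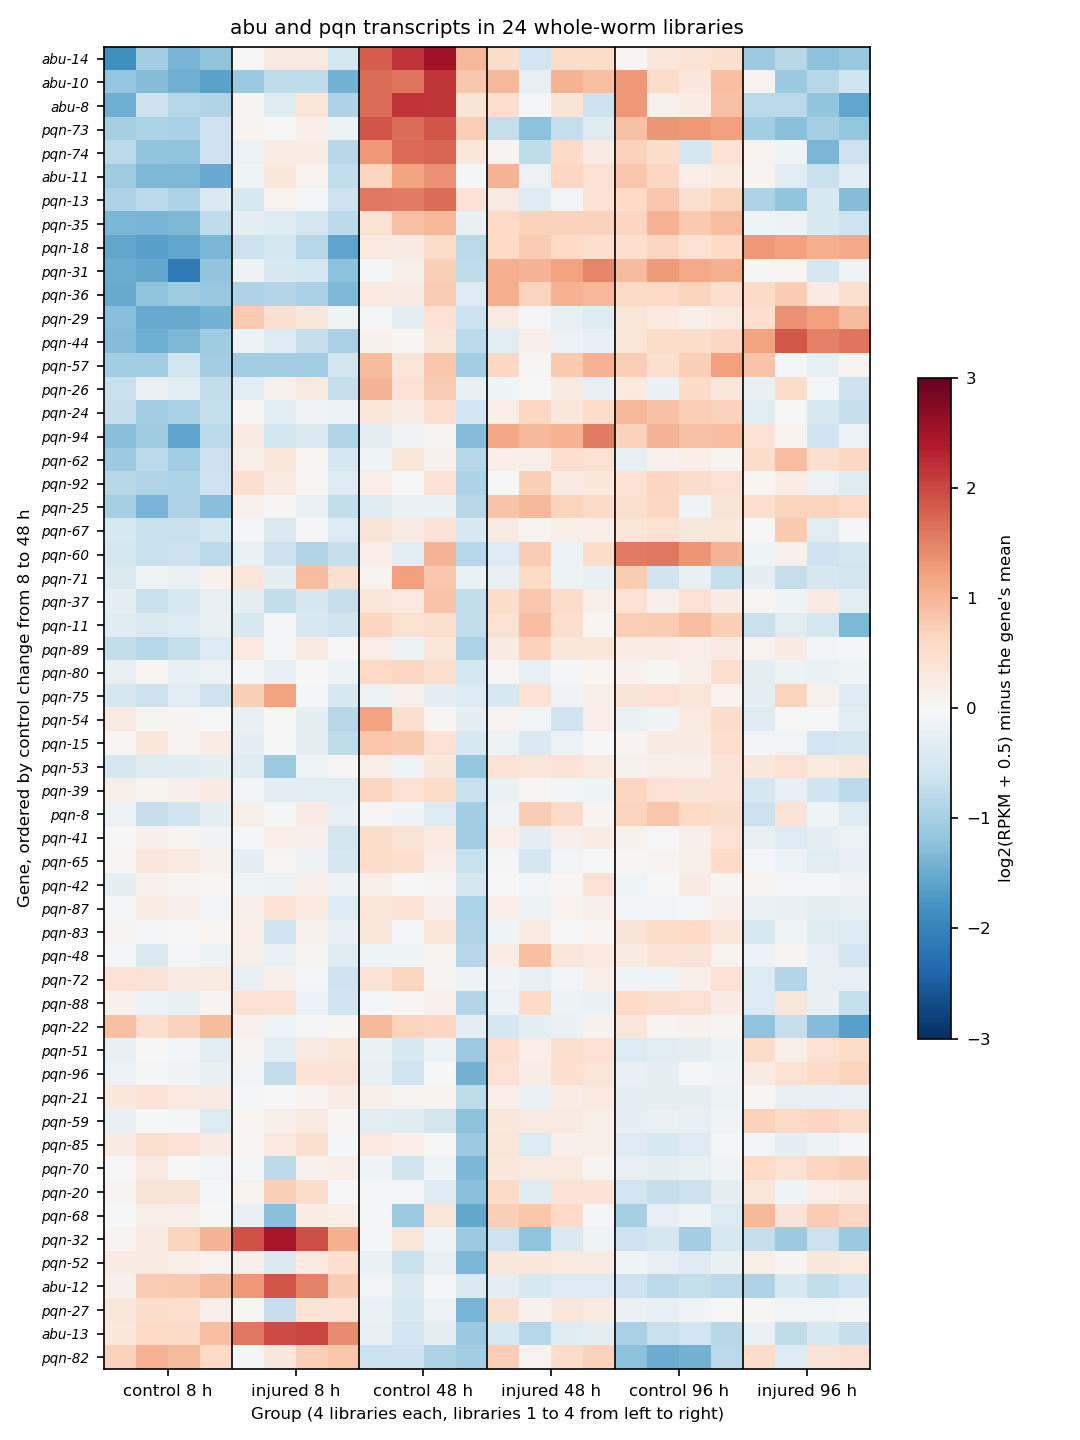
Heat map of the 56 tested abu and pqn genes (rows, ordered by the change of the controls from 8 to 48 h) in 24 libraries (columns, 4 per group), with colour for log2(RPKM + 0.5) minus the mean of the gene. The genes at the top are low in the control 8 h libraries and mostly highest in control 48 h libraries 1 to 3. Of these, abu-8, pqn-13 and pqn-73 are on average lowest in the injured 96 h libraries. Near the bottom, abu-12, abu-13 and pqn-32 are highest in the injured 8 h libraries, and control 48 h library 4 is paler or bluer than its group in nearly every row.

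The first question was how many of these genes differed between injured and control worms at each time. Differences were tested with limma on log2(RPKM + 0.5), and a gene was called at an adjusted p below 0.05. At 8 h, 18 of the 56 tested members were higher in injured worms and 1 was lower, against 11% of all tested features called higher and 11.4% called lower. The 18 include abu-12, which passed the filter only with the injured 8 h libraries. At 48 h, 18 were higher and 8 lower, against 45.8% and 10.2% of all features. After rescaling the 48 h counts turned to 8 higher and 26 lower, while leaving out control 48 h library 4 gave 13 and 13. The share of all features without that library is not given here. At 96 h, 11 were higher and 22 lower, against 32.8% and 28.4% of all features. The median log2 change of the members was 0.22 at 8 h, 0.18 at 48 h (-0.36 after rescaling) and -0.33 at 96 h. Of the 18 genes called higher at 8 h, 8 were called lower at 96 h and 4 were called higher, which is 44.4% and 22.2%, against 16.1% and 34.8% of the 1631 features called higher at 8 h. After rescaling, 9 of the same 18 genes were called lower at 96 h and 3 higher. Of the 2977 features called higher at 8 h after rescaling, 23.8% were lower and 39.8% higher at 96 h, but the 18 genes were not picked in that fit.

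**Figure D2:**
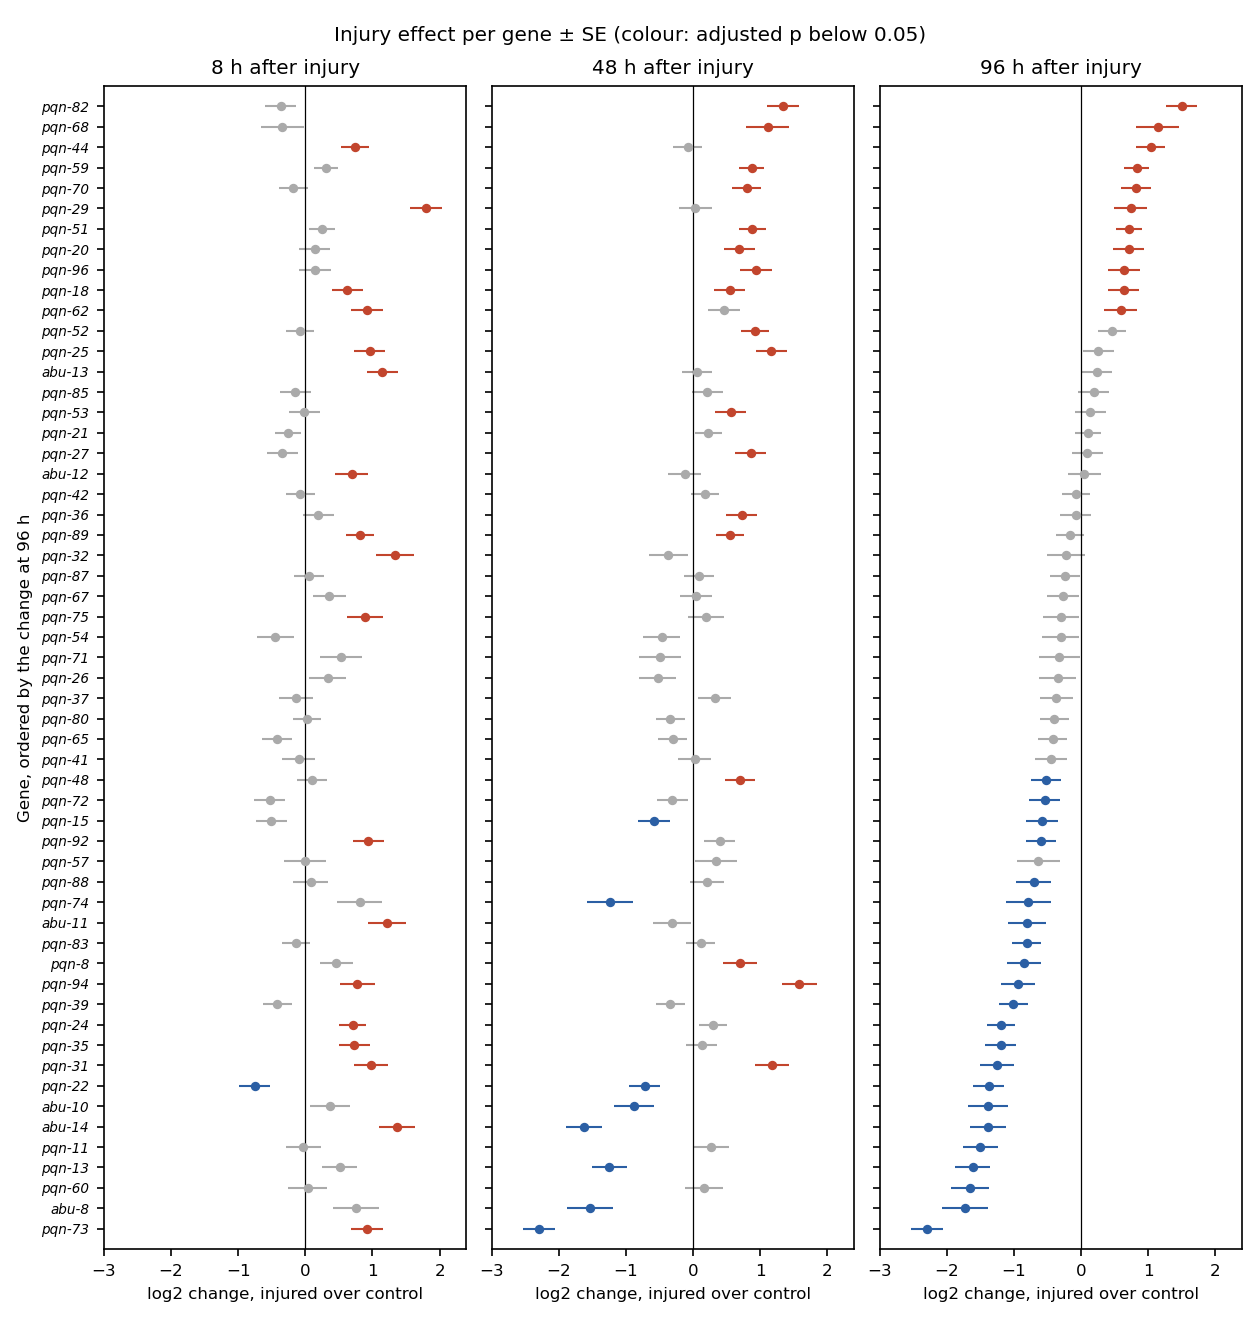
Log2 change of injured over control worms (points) with its SE (bars) for the 56 tested genes at 8, 48 and 96 h, ordered by the change at 96 h, with colour for an adjusted p below 0.05. Red points, which are higher in injured worms, number 18 at 8 h, 18 at 48 h and 11 at 96 h, and blue points number 1, 8 and 22.

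The 7 transcripts that rose most in the controls between 8 and 48 h shared the direction of their later difference between injured and control worms. Those just below them did not. The 7 genes whose controls rose by more than 2 on the log2 scale over this interval were abu-8, abu-10, abu-11, abu-14, pqn-13, pqn-73 and pqn-74, a set picked after the values were seen. The smallest rise inside this limit was that of pqn-13, 2.08. The largest outside it were those of pqn-35, pqn-18 and pqn-31, at 1.76, 1.60 and 1.59. At 96 h pqn-35 and pqn-31 were called lower in injured worms (log2 changes -1.20 and -1.24), whereas pqn-18 was called higher (0.64). The shared direction therefore belongs to this set and not to all members that rose in controls. All 7 were called lower in injured worms at 96 h, against 28.4% of all tested features. That comparison uses neither the 8 h nor the 48 h controls. The share among all features whose controls rose by as much was not computed, so whether the 7 differ from such features was not tested. At 48 h, 6 of the 7 were called lower, and the log2 changes of all 7 ran from -2.30 to -0.31. At 8 h their log2 changes ran from 0.37 to 1.37, with abu-11, abu-14 and pqn-73 called higher. The 8 and 48 h injury effects, and the difference between them, share controls with the rise that picked the genes.

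In this set abu-14, on chromosome II at 9225186 to 9227214 of ce11, was the most abundant. At 8 h abu-14 stood at 2.66, 4.99, 3.79 and 4.37 RPKM in the 4 control libraries and at 10.62, 13.02, 13.12 and 7.34 RPKM in the injured libraries. Every injured library was above every control, by 2.79-fold in the means (log2 change 1.37 ± 0.27 SE, limma adjusted p = 0.000178). At 48 h the abu-14 controls stood at 38.87, 50.52, 64.48 and 22.05 RPKM, and the injured libraries at 15.69, 7.03, 15.74 and 16.02 RPKM. The order of the groups was now the opposite, again with no overlap, although control library 4 was the lowest of its group (log2 change -1.62 ± 0.27, limma adjusted p = 4.57e-06, and -1.92 without that library). At 96 h the abu-14 controls had come down to 11.1, 13.52, 14.51 and 15.21 RPKM and the injured libraries stood at 4.78, 5.8, 4.31 and 4.59 RPKM. Injured worms were thus back near the level of the 8 h controls, 2.79-fold below controls of their own age (log2 change -1.39 ± 0.27, limma adjusted p = 3.46e-05). The injury effect of abu-14 at 48 h was below that at 8 h by a log2 difference of -2.99 ± 0.38 (limma adjusted p = 1.13e-06).

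The same order of injured and control worms at each time was seen in pqn-73, on chromosome II at 8540712 to 8545393. It had the largest fall of any member at both later times. At 8 h pqn-73 was at 1.19, 1.23, 1.2 and 1.68 RPKM in controls and at 3.03, 2.83, 3.34 and 2.52 RPKM in injured worms, with no overlap (log2 change 0.91 ± 0.24, limma adjusted p = 0.0041). At 48 h its controls reached 11.89, 10.17, 11.85 and 5.08 RPKM whereas injured worms stayed at 1.53, 0.92, 1.56 and 2.11 RPKM. Even control library 4 was above all injured libraries, and the means differed 6.37-fold (log2 change -2.30 ± 0.24, limma adjusted p = 1.3e-09, and -2.80 after rescaling). At 96 h the controls were at 5.63, 7.92, 7.83 and 7.44 RPKM and the injured libraries at 1.15, 0.91, 1.19 and 1.01 RPKM, a 6.77-fold difference (log2 change -2.29 ± 0.24, limma adjusted p = 4.47e-10). In injured worms pqn-73 was therefore highest in the 8 h libraries, and in controls it was lowest there. The injury effects at 48 and 8 h differed by -3.21 ± 0.34 on the log2 scale (limma adjusted p = 3.6e-08).

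The remaining members of the set were abu-8, abu-10, abu-11, pqn-13 and pqn-74. In abu-8 the 48 h controls were at 6.84, 9.85, 9.69 and 2.51 RPKM and the injured libraries at 2.77, 1.71, 2.51 and 0.99 RPKM. These groups overlapped through control library 4, the lowest control (log2 change -1.54 ± 0.34, limma adjusted p = 0.00033, and -2.04 after rescaling). At 96 h the abu-8 controls were at 5.18, 2.02, 2.21 and 3.77 RPKM and all injured libraries were below 1, at 0.82, 0.82, 0.52 and 0.29 RPKM (log2 change -1.72 ± 0.34, limma adjusted p = 7.65e-05). For abu-10 the log2 change was -0.89 at 48 h (-1.40 after rescaling) and -1.38 ± 0.30 at 96 h (limma adjusted p = 0.000146), where controls of 3.94, 2.16, 1.76 and 2.9 RPKM faced injured libraries of 1.45, 0.33, 0.52 and 0.69 RPKM with no overlap. The 48 h call of abu-10 was lost without control 48 h library 3 (limma adjusted p = 0.0552) or without injured 48 h library 2 (limma adjusted p = 0.101). For pqn-13 at 48 h the fall in injured worms was -1.25 ± 0.26 on the log2 scale (-1.79 after rescaling), and at 96 h -1.61 ± 0.26 (limma adjusted p = 0.000106 and 1.81e-06). Controls of pqn-13 at that time ranged from 5.18 to 6.74 RPKM and injured libraries from 1.17 to 2.42 RPKM, again apart.

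Transcripts of abu-11 and pqn-74 had the smallest differences of the set at 96 h. The 8 h values of abu-11 were 0.58, 0.38, 0.39 and 0.29 RPKM in controls and 1.58, 2.33, 1.93 and 0.86 RPKM in injured worms, which did not overlap (log2 change 1.22 ± 0.28, limma adjusted p = 0.00121). At 96 h abu-11 was lower in injured worms by a log2 change of -0.80 ± 0.28 (limma adjusted p = 0.0138), a call that was lost without control 96 h library 1 (limma adjusted p = 0.0518) or injured 96 h library 3 (limma adjusted p = 0.0546). At 48 h its log2 change of -0.31 did not pass the test, and rescaling took it to -0.81 (limma adjusted p = 0.0117). For pqn-74 at 48 h the difference was -1.24 ± 0.34 on the log2 scale (-1.77 after rescaling), and at 96 h -0.78 ± 0.34 (limma adjusted p = 0.00244 and 0.045). The 96 h libraries of pqn-74 overlapped, and the call was lost on leaving out any of 8 libraries, with limma adjusted p of 0.0505 to 0.216. Between 8 and 48 h the injury effect went down in 11 of the 56 members and up in 5, against 5.29% and 31.6% of all features in the deposited values. After rescaling 25 went down and 5 up, and the rescaled share of all features is not given here. All 7 genes of this set were among the 11, but the control rise that picked them is a term of this difference. For abu-10 this call was lost without injured 48 h library 2 (limma adjusted p = 0.0648).

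**Figure D3:**
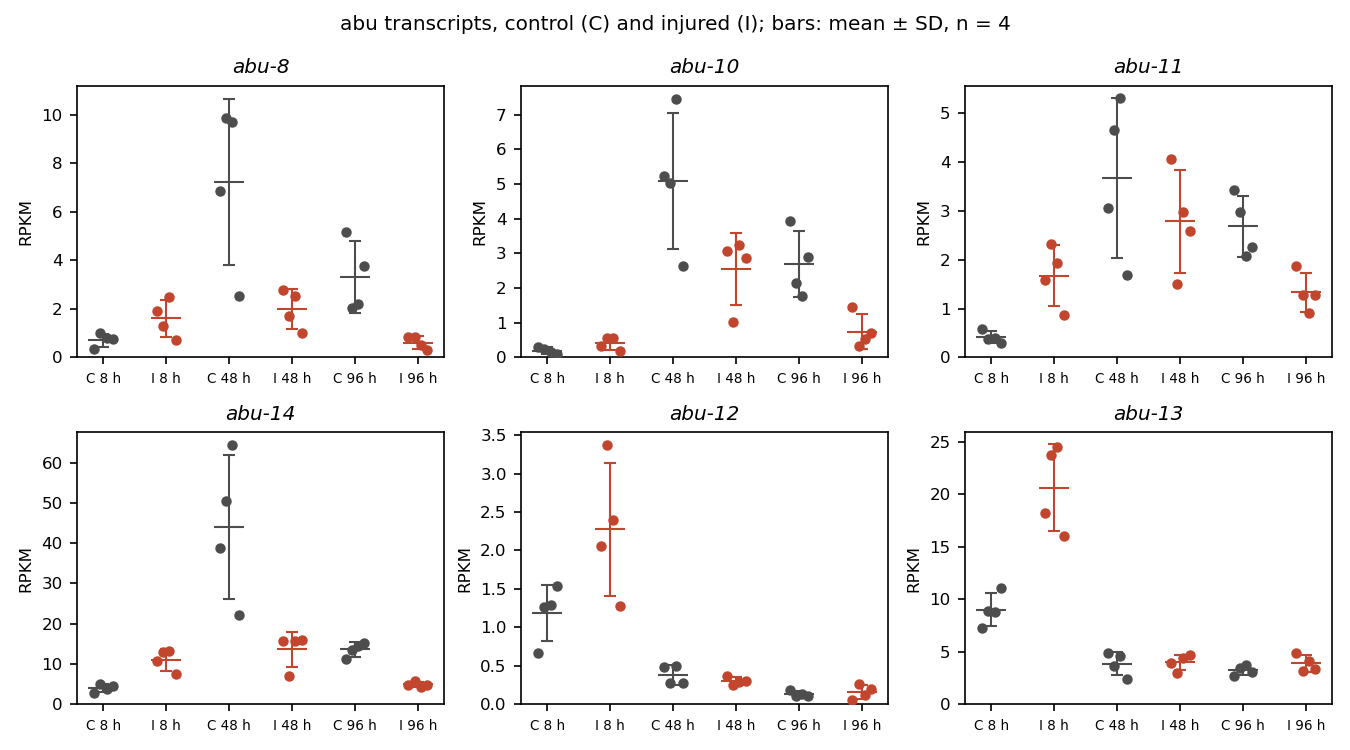
RPKM of the 6 tested abu genes in each library (points, C for control and I for injured worms) with the mean and SD of each group (horizontal and vertical bars, n = 4). In abu-8, abu-10, abu-11 and abu-14 the controls are highest at 48 h and the injured 96 h libraries are below the controls of that time, while abu-12 and abu-13 are highest in injured worms at 8 h and low in both groups later.

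A further set of transcripts was highest in injured worms at 8 h and low at the later times. In abu-13 the 8 h controls were at 7.22, 8.9, 8.8 and 11.05 RPKM and the injured libraries at 18.26, 23.71, 24.53 and 16.03 RPKM. The groups did not overlap and the means differed 2.29-fold (log2 change 1.15 ± 0.23, limma adjusted p = 0.000196). From 8 to 48 h abu-13 fell by 1.15 on the log2 scale in controls (limma adjusted p = 8.43e-05, and by 0.88 after rescaling), to 4.81, 3.66, 4.56 and 2.39 RPKM. At 48 and 96 h the injured and control libraries of abu-13 overlapped, with log2 changes of 0.06 and 0.23 that did not pass the test, although the rescaled 48 h value of -0.48 did. For pqn-32 the 8 h controls were at 5.43, 6.32, 8.49 and 10.94 RPKM and the injured libraries at 20.53, 30.93, 21.17 and 11.34 RPKM (log2 change 1.34 ± 0.29, limma adjusted p = 0.00052). Injured library 4 lay just above the highest control, and the other 3 injured libraries were well apart. At 96 h all pqn-32 libraries were between 2.11 and 3.51 RPKM.

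The gene abu-12 had the same order at a lower level, at 0.66, 1.26, 1.29 and 1.53 RPKM in 8 h controls and 2.06, 3.37, 2.4 and 1.27 RPKM in injured worms. Its groups overlapped through injured library 4 (log2 change 0.69 ± 0.24, limma adjusted p = 0.0354), and the call was lost on leaving out any of 6 libraries, with limma adjusted p of 0.0535 to 0.181. The 8 h call of abu-12 is also not separate from the filter, which the gene passed only with the injured 8 h libraries. The 96 h libraries of abu-12 were all at or below 0.26 RPKM. The largest change of any member at 8 h was that of pqn-29, at 0.78, 0.58, 0.59 and 0.66 RPKM in controls and at 4.83, 3.84, 3.43 and 2.31 RPKM in injured worms. All injured libraries were above all controls, 5.52-fold in the means (log2 change 1.80 ± 0.24, limma adjusted p = 5.78e-07). At 48 h both groups of pqn-29 averaged 2.41 RPKM, and its rescaled log2 change of -0.46 did not pass the test (limma adjusted p = 0.0769). At 96 h injured pqn-29 libraries of 3.88, 7.5, 6.79 and 5.46 RPKM were again above controls of 3.47, 3.27, 3.01 and 3.21 RPKM (log2 change 0.74 ± 0.24, limma adjusted p = 0.00877). The interaction of pqn-29 between 8 and 48 h was -1.76 ± 0.35 (limma adjusted p = 0.000183).

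Several pqn transcripts were higher in injured worms at the later times. Called higher at both 48 and 96 h were 8 genes, namely pqn-18, pqn-20, pqn-51, pqn-59, pqn-68, pqn-70, pqn-82 and pqn-96. These are 14.3% of the tested members, against 30.4% of all features called higher at both times (23.9% after rescaling). After rescaling all 8 kept their 96 h calls and 3 kept their 48 h calls. The change with the largest size was that of pqn-82, on chromosome III at 1849047 to 1852473. At 48 h pqn-82 was at 8.17, 8.17, 6.57 and 6.07 RPKM in controls and 22.15, 14.11, 19.32 and 21.37 RPKM in injured worms, and at 96 h at 5.21, 4.32, 4.59 and 7.15 RPKM in controls and 19.28, 9.78, 17.11 and 18.66 RPKM in injured worms. The groups were apart at both times, with log2 changes of 1.34 ± 0.23 (limma adjusted p = 8.92e-06, and 0.76 after rescaling) and 1.5 ± 0.23 (limma adjusted p = 1.03e-06). At 8 h the pqn-82 controls, at 21.21, 27.25, 25.47 and 19.92 RPKM, were in the range of the injured libraries of the later times or above it. From 8 to 48 h the pqn-82 controls fell by 1.63 on the log2 scale (limma adjusted p = 4.68e-07), and the injured libraries stood at 12.48 to 23.43 RPKM at 8 h and 9.78 to 19.28 RPKM at 96 h.

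The most abundant member, pqn-59, also rose, by a smaller factor. At 8 h its controls were at 234.5, 276.2, 270.3 and 207.7 RPKM and the injured libraries at 289.4, 309.2, 328.7 and 289.8 RPKM, which did not overlap, but the log2 change of 0.31 did not pass the test (0.35 after rescaling, limma adjusted p = 0.0278). At 96 h controls were at 226.5, 241.1, 234.2 and 259.9 RPKM and injured libraries at 446.2, 420.9, 437.9 and 404.6 RPKM. The spread within each group was small beside the 1.78-fold difference of the means (log2 change 0.83 ± 0.18, limma adjusted p = 0.000197). For pqn-59 at 48 h the difference was 0.87 ± 0.18 on the log2 scale (limma adjusted p = 0.000122), 0.67 without control 48 h library 4 (limma adjusted p = 3.25e-05) and 0.27 after rescaling (limma adjusted p = 0.0694). The transcripts of pqn-51, pqn-68 and pqn-70 had log2 changes at 96 h of 0.72 ± 0.20, 1.14 ± 0.32 and 0.82 ± 0.22 (limma adjusted p = 0.00189, 0.00311 and 0.00162). In pqn-70 the 96 h controls ran from 42.66 to 48.49 RPKM and the injured libraries from 71.74 to 85.74 RPKM. The 96 h call of pqn-96 was lost without injured 96 h library 4 (limma adjusted p = 0.0525), and the 48 h call of pqn-20 without control 48 h library 4 (limma adjusted p = 0.0834).

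Markers of oocytes and germline moved in the same direction as pqn-82 in these libraries. All 24 tested markers of this list were higher in injured worms at 48 and 96 h, with median log2 changes of 2.13 (1.53 after rescaling) and 2.52, and all 24 fell in controls from 8 to 48 h with a median of -2.09. Their summed level was 3947 to 6313 RPKM in 8 h controls, 960.6 to 1613 RPKM in 48 h controls and 657.6 to 1270 RPKM in 96 h controls, against 3497 to 6844 and 3388 to 6366 RPKM in injured worms at 48 and 96 h, and none of the 24 was at 0 throughout any group. At 8 h the median of the list was 0.05. Their part in the changes of pqn-82, pqn-59 and the other pqn genes that were higher late was not tested.

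In a group of pqn genes the injury effect fell between 48 and 96 h. It was called lower at 96 than at 48 h in 10 members, which is 17.9% of those tested and near the 14.3% of all features, and called higher in 1, against 0.662%. The 10 were pqn-8, pqn-11, pqn-24, pqn-31, pqn-35, pqn-48, pqn-60, pqn-83, pqn-92 and pqn-94, and all 10 were called lower in injured worms at 96 h itself. The 48 and 96 h injury effects are both terms of the difference that picked these genes, so their directions are not separate support. At 48 h 4 of the 10 were called higher, whereas rescaling gave 2 higher and 2 lower with a median log2 change of -0.21. After rescaling 8 of the 10 kept the call of the difference. The widest swings were those of pqn-94 and pqn-31, both on chromosome V.

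At 48 h pqn-94 was at 18.07, 20.87, 23.68 and 8.82 RPKM in controls and 50.98, 44.7, 46.41 and 65.46 RPKM in injured worms. All injured libraries were at least as high as 44.7 RPKM and no control exceeded 23.68 RPKM (log2 change 1.58 ± 0.26, limma adjusted p = 3.38e-06, and 0.99 after rescaling). At 96 h the pqn-94 controls had risen to 36.61, 45.96, 41.64 and 42.69 RPKM and the injured libraries had come down to 30.15, 24.31, 14.59 and 19.77 RPKM (log2 change -0.94 ± 0.26, limma adjusted p = 0.00193). The order of the groups was reversed without overlap, and the interaction was -2.52 ± 0.36 (limma adjusted p = 2.23e-05). In pqn-31 the 48 h controls were at 9.87, 11.42, 17.19 and 5.91 RPKM and the injured libraries at 22.01, 21.3, 24.49 and 29.14 RPKM, while at 96 h controls were at 20.43, 25.49, 23.33 and 21.93 RPKM and injured libraries at 10.57, 10.66, 6.99 and 9.48 RPKM. The injured pqn-31 libraries of 48 h overlapped the controls of 96 h in range, and the groups were apart at both times (log2 changes of 1.17 ± 0.25 and -1.24 ± 0.25, limma adjusted p = 0.000179 and 7.22e-05, with 0.59 at 48 h after rescaling). At 8 h pqn-31 was also higher in injured worms, by a log2 change of 0.98 ± 0.25 (limma adjusted p = 0.00356), with injured library 4 at 4.09 RPKM inside the control range of 1.98 to 4.27 RPKM.

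Among the others of this group, pqn-24 was the most abundant to rise at 8 h and fall at 96 h. Its 8 h controls were at 51.36, 40.15, 41.66 and 50.17 RPKM and its injured libraries at 84.68, 64.98, 76.68 and 73.39 RPKM (log2 change 0.71 ± 0.20, limma adjusted p = 0.00931). Its 96 h controls were at 165.3, 153.3, 138.2 and 133.6 RPKM and its injured libraries at 66.78, 82.91, 60.59 and 50.81 RPKM (log2 change -1.19 ± 0.20, limma adjusted p = 5.67e-06). The groups of pqn-24 were apart at both times, and the injured libraries of 96 h were near those of 8 h while the controls of 96 h were far above those of 8 h. In pqn-60 the 96 h controls of 12.43, 12.64, 10.47 and 8.43 RPKM were above injured libraries of 3.53, 4.33, 2.36 and 2.58 RPKM (log2 change -1.65 ± 0.29, limma adjusted p = 7.29e-06). In pqn-11 the same comparison set 3.51, 3.59, 4.05 and 3.43 RPKM against 1.02, 1.39, 1.18 and 0.45 RPKM (log2 change -1.5 ± 0.26, limma adjusted p = 7.52e-06). Neither gene had passed the test at 8 or 48 h, where pqn-60 had log2 changes of 0.04 and 0.16 and pqn-11 of -0.03 and 0.27, and rescaling turned the 48 h values to -0.36 and -0.21 (limma adjusted p = 0.244 and 0.437). For pqn-83 and pqn-92 the call of the difference between 48 and 96 h was lost on leaving out any of 11 and 7 libraries, with limma adjusted p of 0.0531 to 0.0842 and 0.0516 to 0.0895, and the 96 h call of pqn-48 was lost on leaving out any of 10, with limma adjusted p of 0.0501 to 0.156.

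The single member whose injury effect was called higher at 96 h than at 48 h was pqn-44, the most abundant after pqn-59. At 48 h it was at 105.5, 101.1, 120.1 and 55.89 RPKM in controls and 75.69, 107.1, 86.18 and 81.97 RPKM in injured worms, which overlapped (log2 change -0.08, and -0.68 after rescaling with a limma adjusted p of 0.00413). At 96 h controls were at 124.5, 141.2, 139 and 148.1 RPKM and injured pqn-44 libraries at 223.4, 354.8, 278.2 and 293.2 RPKM, 2.08-fold higher with no overlap (log2 change 1.04 ± 0.21, limma adjusted p = 7.44e-05). The interaction of pqn-44 between 48 and 96 h was 1.12 ± 0.30 (limma adjusted p = 0.011) and 1.55 after rescaling. At 8 h it was also higher in injured worms, at 86.53, 74.13, 59.9 and 49.07 RPKM against 39.23, 34.97, 37.62 and 46.02 RPKM, a call that was lost without injured 8 h library 1 (limma adjusted p = 0.0594).

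**Figure D4:**
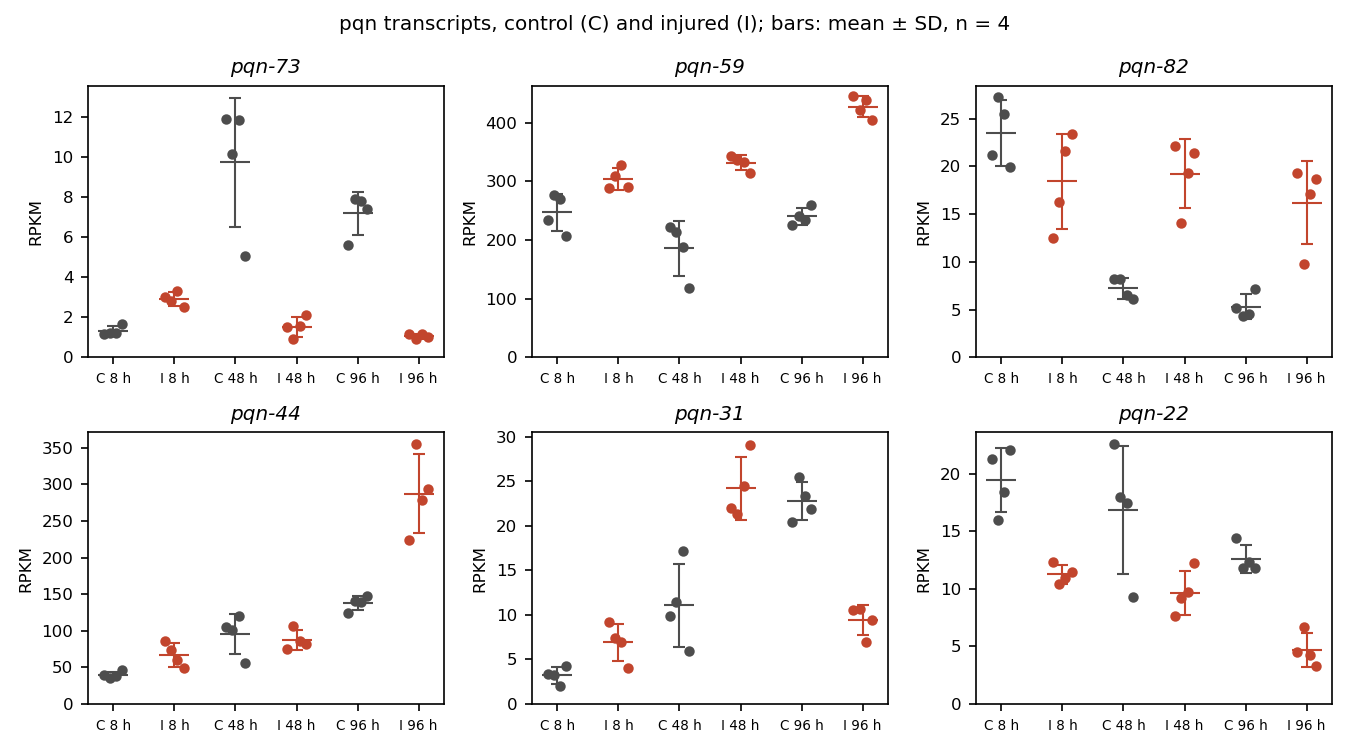
RPKM of 6 pqn genes in each library (points, C for control and I for injured worms) with the mean and SD of each group (horizontal and vertical bars, n = 4). Injured libraries are below controls at 48 and 96 h in pqn-73, above them in pqn-59 and pqn-82, above them at 96 h in pqn-44, above at 48 h and below at 96 h in pqn-31, and at 96 h below in pqn-22.

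In contrast to the rest, pqn-22 was called lower in injured worms at all 3 times. Its 8 h controls were at 21.25, 16, 18.39 and 22.09 RPKM and its injured libraries at 12.32, 10.38, 10.93 and 11.49 RPKM (log2 change -0.75 ± 0.23, limma adjusted p = 0.0147). It was the 1 member called lower at 8 h, and the call was lost without control 8 h library 4 (limma adjusted p = 0.0517). The 48 h libraries gave -0.72 ± 0.23 on the log2 scale (limma adjusted p = 0.00808, and -1.30 after rescaling), with control library 4 at 9.25 RPKM inside the injured range of 7.61 to 12.22 RPKM. At 96 h its controls were at 14.4, 11.78, 12.35 and 11.82 RPKM and its injured libraries at 4.53, 6.71, 4.22 and 3.3 RPKM (log2 change -1.37 ± 0.23, limma adjusted p = 4.15e-06). Exons of pqn-22 overlap those of C46G7.1, on the opposite strand, and whether reads were counted by strand is not given in the sources used here. The transcript of pqn-39 was lower at 96 h, where controls of 29.06, 25.12, 24.44 and 24.9 RPKM stood above injured libraries of 12.86, 15.41, 12.08 and 10.58 RPKM (log2 change -1.0 ± 0.22, limma adjusted p = 0.000142). At 8 and 48 h the log2 changes of pqn-39 were -0.42 and -0.34, short of the threshold, and the rescaled values of -0.37 and -0.93 both passed it.

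Unlike these, pqn-25 was higher in injured worms at 8 and 48 h and level with controls at 96 h. Its log2 changes were 0.96 ± 0.23 (limma adjusted p = 0.00187), 1.16 ± 0.23 (limma adjusted p = 6.1e-05, and 0.67 after rescaling) and 0.26. At 48 h its controls were at 1.63, 1.87, 1.87 and 1.04 RPKM and its injured libraries at 4.44, 4.83, 3.86 and 3.55 RPKM. The groups were apart, by more than the spread within either. The 8 h rises of pqn-62, pqn-89 and pqn-92 were similar in size, with log2 changes of 0.92 ± 0.24, 0.81 ± 0.21 and 0.94 ± 0.23 (limma adjusted p = 0.00373, 0.00333 and 0.00179) and injured libraries that were all above the controls. In pqn-89 this difference did not pass the test at 96 h, where the log2 change was -0.16, and at 48 h it was 0.55 as deposited and -0.05 after rescaling.

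The 48 h results depended on how control 48 h library 4 was treated, and the members divided by this. Held as deposited, after rescaling and without that library, 8 genes were called higher (pqn-25, pqn-27, pqn-31, pqn-51, pqn-52, pqn-82, pqn-94 and pqn-96) and 8 were called lower (abu-8, abu-10, abu-14, pqn-13, pqn-15, pqn-22, pqn-73 and pqn-74). The share of all features held in this way was not computed, so whether the members differ from it was not tested. These lower calls were the same 8 as in the deposited values, and that of pqn-15 was lost on leaving out any of 5 libraries, with limma adjusted p of 0.0512 to 0.132. The other 10 higher calls of the deposited values were lost in at least 1 of these settings, and those of pqn-18, pqn-53 and pqn-89 changed sign on rescaling, to -0.05, -0.04 and -0.05. After rescaling the members called at 48 h were 14.3% higher and 46.4% lower, against 27.8% and 31.1% of all features.

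**Figure D5:**
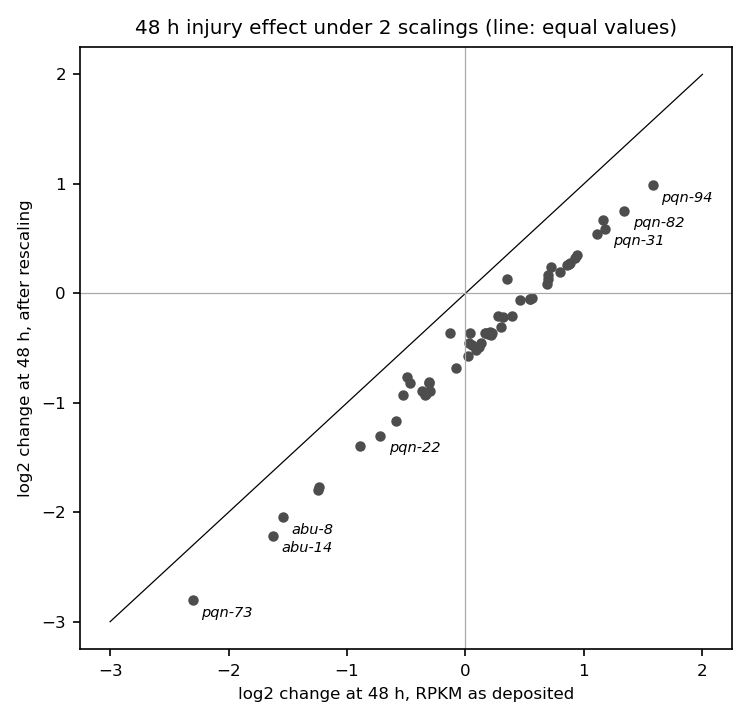
Log2 change of injured over control worms at 48 h for the 56 tested genes, from the RPKM as deposited (horizontal axis) and after rescaling by median of ratios (vertical axis), with the line of equal values. All points lie below the line, and pqn-73, abu-14 and abu-8 stay lowest and pqn-94 and pqn-82 highest under both.

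Many of these genes also changed with age in uninjured worms. From 8 to 48 h, 23 members rose in controls and 9 fell, against 18.8% and 30% of all features, both in the deposited values. After rescaling 30 members rose and 6 fell, and the rescaled shares of all features are not given here. The 23 rises were all called after rescaling and without control 48 h library 4 as well, as were 5 of the falls, those of abu-12, abu-13, pqn-27, pqn-52 and pqn-82. The largest rises were those of abu-14 (log2 change 3.25 ± 0.27), abu-10 (2.94 ± 0.30), abu-8 (2.55 ± 0.34) and pqn-73 (2.43 ± 0.24), with limma adjusted p of 5.06e-12, 4.76e-10, 4.29e-07 and 2.57e-10. In abu-10 the 8 h controls were at 0.31, 0.23, 0.16 and 0.09 RPKM and the 48 h controls at 5.22, 5.03, 7.46 and 2.64 RPKM, without overlap. From 48 to 96 h, 6 members rose and 2 fell, against 11.7% and 1.26% of all features, both in the deposited values. After rescaling 4 members rose and 11 fell, again without rescaled shares of all features. The 2 falls in the deposited values were those of abu-14 (log2 change -1.57 ± 0.27, limma adjusted p = 0.000154) and pqn-74 (-0.99 ± 0.34, limma adjusted p = 0.0488), and the latter was lost on leaving out any of 17 libraries, with limma adjusted p of 0.0501 to 0.186. The largest rise over this interval was that of pqn-60, from 4.56, 3.05, 8.42 and 1.95 RPKM to 12.43, 12.64, 10.47 and 8.43 RPKM (log2 change 1.35 ± 0.29, limma adjusted p = 0.00169), which rests on groups that nearly met at 8.42 and 8.43 RPKM.

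Genes of the processes to which abu and pqn genes have been tied were read in the same comparisons. Of 24 tested genes of the endoplasmic reticulum unfolded protein response, 3 were higher and 1 was lower in injured worms at 8 h. The median log2 change of the list was 0.10, and 11% of all features were called higher and 11.4% lower. Among the 3 was hsp-4, the BiP chaperone that reports this response, at a log2 change of 1.46 ± 0.18 (limma adjusted p = 1.16e-07). At 96 h 10 of the 24 were lower, among them the chaperone hsp-3 at -1.16 and the disulfide isomerase pdi-2 at -1.17 (limma adjusted p = 2.14e-06 and 1.56e-06). At 48 h 7 were higher and 2 lower in the deposited values, a split that rescaling turned to 16 lower. A list of octr-1 and engulfment genes, of the CED-1 pathway and others such as psr-1, held 12 tested genes. Of these 12, 2 were higher at 8 h and 6 at 48 h (5 higher and 3 lower after rescaling). At 96 h 3 were higher and 3 lower. The phosphatidylserine receptor gene psr-1 was at 1.52 at 48 h (0.93 after rescaling) and 1.27 at 96 h, and octr-1 at -0.71 at 96 h (limma adjusted p = 9.03e-07, 1.14e-05 and 0.0097).

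Markers of the tissues in which paralogs of this family are known to act were read in the same libraries. Of 17 tested markers of pharyngeal muscle, marginal cells and glands, 6 were higher at 8 h, with a median log2 change of 0.63, and the summed level of the 19 listed markers was 121.8 to 132.4 RPKM in 8 h controls and 126.2 to 173.2 RPKM in injured worms. At 48 h 8 of these markers were higher and 1 lower, with a median of 0.43, and rescaling gave 1 higher and 3 lower. At 96 h 3 were higher and 6 lower, with a median of 0.10 and sums of 223.4 to 242.8 RPKM in controls and 174.2 to 218.3 RPKM in injured worms. In controls 6 of the 17 rose from 8 to 48 h, with a median of 0.46, and the largest of these was pha-4, the organ identity factor of the pharynx (log2 change 1.65, limma adjusted p = 9.58e-08). Of 30 genes of molting and the apical extracellular matrix, 11 were higher and 1 lower at 8 h, 5 higher and 7 lower at 48 h (1 and 17 after rescaling), and 3 higher and 11 lower at 96 h, with sums of 303.2 to 349.6 RPKM in 96 h controls and 138.2 to 194.9 RPKM in injured worms. In controls 2 of the 30 molting genes rose from 8 to 48 h and 13 fell, with a median of -0.45 (8 and 11 after rescaling). Of 20 tested cuticle structure genes, 11 rose and 7 fell in controls over this interval, with a median of 0.87 (12 and 7 after rescaling). In injured worms 2 were higher at 8 h, 6 lower at 48 h (15 after rescaling) and 4 lower at 96 h. Of 13 hypodermis markers, 5 rose and 2 fell in controls, with a median of 0.84 (8 and 2 after rescaling). With injury 3 were higher and 1 lower at 8 h, and 3 and 4 at 48 h (0 and 7 after rescaling) and at 96 h. Of 15 tested intestine markers, 1 was higher and 7 were lower in injured worms at 8 h, 3 higher and 8 lower at 48 h (1 and 12 after rescaling) and 12 lower at 96 h, where their median log2 change was -1.65 and their summed level was 15810 to 21240 RPKM in controls and 2529 to 5375 RPKM in injured worms. Of 15 body wall muscle markers 8 were higher at 8 h, with sums of 1533 to 1879 RPKM in controls and 1710 to 2951 RPKM in injured worms, and 1 was higher and 4 were lower at 96 h. Of 15 neuron markers 11 were higher at 48 h (2 higher and 1 lower after rescaling), with sums of 365.9 to 820.1 RPKM in controls and 842 to 1009 RPKM in injured worms. None of the markers of these tissues or of molting was at 0 throughout a group. The part of these shifts in the changes of abu-14, pqn-73 and the other abu and pqn genes was not tested.

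Some members gave no call. Of the 56 tested genes, 13 were called in none of the 3 injury comparisons, and 9 of these in none of the 7 comparisons made: pqn-21, pqn-41, pqn-42, pqn-54, pqn-65, pqn-71, pqn-80, pqn-85 and pqn-87. Each of the 9 was called in at least 1 comparison after rescaling. In pqn-85, the cohesin loader, log2 changes with injury were -0.15, 0.21 and 0.19 at 8, 48 and 96 h, and rescaling took the 48 h value to -0.38. In pqn-41, the linker cell death gene, they were -0.10, 0.02 and -0.44, and rescaling took the 48 h value to -0.57 (limma adjusted p = 0.011). At 96 h pqn-41 had controls of 24.44, 21.92, 24.85 and 30.35 RPKM and injured libraries of 18.9, 16.99, 18.21 and 19.79 RPKM. The latter groups did not overlap although the difference missed the threshold, and rescaling brought it past the threshold at -0.61.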

How the data were processed

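Poly(A) RNA of whole worms was sequenced as paired 150 bp reads, and the authors aligned it with CLC software to ce11 and deposited RPKM values, with no scaling between libraries beyond the total of mapped reads. Annotation release, strand setting and the rule for reads with several matches are not given in the sources used here. The authors' own p-value and FDR columns were not used. Library numbers are the order of columns within a group. The labels call the samples biological replicates and a legend of the study, which names CF512, calls them independent, without saying what was kept separate, so p-values measure the spread between these samples, which may be technical. The members and gene lists were chosen with earlier results of these data known.

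Values were tested as log2(RPKM + 0.5), so fold changes of low genes are understated. The 14813 features with RPKM of at least 1 in at least 4 libraries were fitted with 6 group means in limma 3.58.1 (R 4.3.3, trended robust eBayes), with two-sided tests and Benjamini-Hochberg adjustment within each of 7 comparisons (threshold 0.05). On simulated data 92.5% of 200 changed genes were recovered, with 6.57% false among the calls. These genes were changed in injured 8 h libraries alone, by a fixed size above that of most members. Errors were independent and no library was shifted, so these shares do not give the power or error rate of the calls here. The depth of each library was recovered from RPKM steps, at which 90.2 to 96.7% of low values were whole within 0.1 read. Coordinates come from an annotation of the same assembly, which matched 70 of 77 members. Named in full were called members with the largest changes (up to 8 in each direction per comparison) and the 6 most abundant. Alternatives were median-of-ratios scaling, pseudocounts of 0.1 and 1, no filter or RPKM of at least 5, fits of the compared groups alone, array quality weights, leaving out the 4 libraries above 5% rRNA, and leaving out each library. No member sequences were used.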

Additional observations from a re-analysis of the deposited data

Results flagged for a closer look

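In 336 pairs of a member and a group, 22 (6.55%) held a library far from the other 3 by Dixon's criterion, where chance gives about 1 in 20. In injured 48 h library 2 these were abu-14 at 7.03, pqn-65 at 15.86, abu-10 at 1.01, pqn-71 at 0.83, pqn-48 at 15.91, pqn-88 at 11.28 and pqn-41 at 18.2 RPKM. In control 48 h library 4 they were pqn-21 at 10.48, pqn-13 at 5.03 and pqn-80 at 8.51 RPKM, all low. In control 96 h library 4 they were pqn-21 at 16.25, pqn-87 at 97.13 and pqn-53 at 117.1 RPKM, all high. In control 8 h library 4 they were pqn-73 at 1.68 and pqn-35 at 4.8 RPKM. The remaining 7 were pqn-39 at 29.06 RPKM in control 96 h library 1, pqn-35 at 13.08 RPKM in injured 48 h library 1, pqn-21 at 18.5 RPKM in injured 96 h library 1, pqn-42 at 4.56 RPKM in injured 8 h library 3, pqn-80 at 13.11 RPKM in control 8 h library 2, and pqn-57 at 0.20 RPKM in control 8 h library 3 and at 0.19 RPKM in injured 8 h library 4.

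The injury effect differed between 8 and 48 h by limma's interaction test in 16 members, with a log2 difference of -3.21 in pqn-73, -2.99 in abu-14, -2.29 in abu-8, -2.05 in pqn-74, -1.76 in pqn-29, -1.76 in pqn-13, -1.71 in pqn-32, -1.53 in abu-11, -1.26 in abu-10, -1.09 in abu-13 and -0.82 in pqn-44. It was 1.71 in pqn-82, 1.45 in pqn-68, 1.20 in pqn-27, 1.00 in pqn-52 and 0.97 in pqn-70. Between 48 and 96 h it differed in 11 members, by -2.52 in pqn-94, -2.42 in pqn-31, -1.81 in pqn-60, -1.77 in pqn-11, -1.55 in pqn-8, -1.48 in pqn-24, -1.32 in pqn-35, -1.22 in pqn-48, -0.99 in pqn-92, -0.92 in pqn-83 and 1.12 in pqn-44.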

How the results depend on the processing

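Of 145 calls of single members, 96 held in every alternative in which the member was tested (74 of them in 32 alternatives and 22 in 31, which lack the filter at RPKM of 5), and 49 were lost in at least 1. Counts of called members that moved by over 1.5 times were these. With median-of-ratios scaling, 3 were lower at 8 h, 8 higher and 26 lower at 48 h, 11 controls lower from 48 to 96 h, 25 had a lower effect at 48 than at 8 h and 3 a higher effect at 96 than at 48 h. The 48 h log2 changes of pqn-89, pqn-18 and pqn-53 reversed to -0.0543, -0.0526 and -0.0417. With array quality weights, 6 were lower at 8 h, 20 lower at 48 h, 11 higher and 20 lower in controls from 48 to 96 h, 23 had a lower effect at 48 than at 8 h, and 5 a higher and 17 a lower effect at 96 than at 48 h. Without the 4 libraries above 5% rRNA, 2 were lower at 8 h, 11 higher and 14 lower at 48 h, 1 control higher from 48 to 96 h, 3 had a higher and 21 a lower effect at 48 than at 8 h, and 2 a higher effect at 96 than at 48 h. A filter at RPKM of 5 left 15 controls higher from 8 to 48 h and 7 with a lower effect at 48 than at 8 h, no filter gave 2 with a higher effect at 96 than at 48 h, and a fit of the compared groups alone left 5 controls lower from 8 to 48 h. Pseudocounts of 0.1 and 1 gave 1 and 4 controls lower from 48 to 96 h. Leaving out single libraries, the counts higher and lower ranged over 12 to 20 and 0 to 5 at 8 h, 13 to 19 and 6 to 13 at 48 h, 9 to 12 and 17 to 26 at 96 h, 20 to 30 and 5 to 12 for controls from 8 to 48 h, 4 to 12 and 1 to 6 for controls from 48 to 96 h, 5 to 8 and 10 to 20 for the effect at 48 against 8 h, and 1 to 1 and 8 to 16 for that at 96 against 48 h. The 0 lower at 8 h came without control 8 h library 4, which the call of pqn-22 needed. The cause of each change was not tested. No paired analysis was possible because the columns carry no replicate numbers. At these depths 1 RPKM of abu-10 stands for 24.9 to 78.5 reads, so precision is lowest for members below 1 RPKM.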
